A study of Saccharomyces cerevisiae with 4 samples.

Results

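The genes described here encode the subunits that RNA polymerase I (Pol I) does not share with the other nuclear RNA polymerases, together with its initiation factor Rrn3. They were taken by name, namely RPA190, RPA135, RPA49, RPA43, RPA34, RPA14, RPA12 and RRN3, which makes 8 of the 5656 genes with a probe set of their own. Each gene was read from the probe set annotated to it alone, and from the brightest by mean signal where it had several. All 8 genes had signals above the floor of 21.8 units on all 4 arrays, the floor being the 40th percentile of signal on these arrays. RPA190 had 7 probe sets and the other 7 genes had 1 each.

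Budding yeast of 2 strains was measured on single whole-genome expression arrays of total RNA, namely nab3-11 at 37 °C, wild type at 37 °C, nab3-11 at 25 °C and wild type at 25 °C. Strain 1099 had the conditional allele nab3-11, which loses function when warm, and strain 1415 was wild type. All 4 cultures grew in YPD, a rich medium, and were held for 2 hours at the stated temperature, with 25 °C as the permissive and 37 °C as the non-permissive one. Nab3 is an RNA-binding partner of Nrd1 and Sen1 in the early termination of short non-coding transcripts made by RNA polymerase II (Pol II). The labels name no other alleles and do not say whether the strains are isogenic. With 1 array per group there is no error, test or p-value, and every difference below compares single arrays. Genes were called at 2-fold, and at 1.5-fold as a second rule, each set against the share of all measured genes past the same fold. The description of each wild type array names nab3-11 at 25 °C, against its title and strain entry, which were followed. The strains did differ at both temperatures in a URA3 control probe set, which had 74.5 units in nab3-11 against 165 in wild type at 37 °C, and 76.1 against 168 at 25 °C.

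Each array had been scaled to the same mean signal, so a change in total RNA per cell cannot be seen, and fewer cells with a transcript cannot be told apart from less of it per cell. The share of non-control probe sets over the floor was 64.4% and 62.7% in nab3-11 and wild type at 37 °C, and 56.5% and 56.5% at 25 °C. All 4 α-specific mating-type genes exceeded the floor on every array, and 0 of 5 a-specific genes did, with no a-specific signal above 35.5 units. The summed α-specific signal was 1780 and 1544 units in nab3-11 and wild type at 37 °C, and 6973 and 7647 at 25 °C. NRD1, whose transcript is itself shortened by this pathway, had 717 units in nab3-11 against 88.9 in wild type at 37 °C, and 291 against 125 at 25 °C, where the difference was 2.32-fold and 99.5% of genes had a lower one. NAB3 had 81.1 against 66.8 units at 37 °C, and 72.2 against 66.3 at 25 °C. The signal of 3′ over 5′ control probe sets of ACT1 was 1.79 and 1.56 in nab3-11 and wild type at 37 °C, and 1.49 and 1.66 at 25 °C. For SPT15 that ratio was 3.38 and 4.45 in nab3-11 and wild type at 37 °C, and 2.82 and 6.08 at 25 °C, so the arrays did not keep 1 order over both control genes. The part of these differences between arrays in the results was not tested.

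Pol I has a single product, the precursor of the large ribosomal RNAs, which it makes in the nucleolus from the tandem rDNA repeats. Rpa190 and Rpa135 form the catalytic core, Rpa12 serves RNA cleavage, Rpa49 and Rpa34 form a dimer related to the Pol II factor TFIIF, and Rpa43 and Rpa14 form the stalk. Rrn3 binds the enzyme through the stalk and brings it to the rDNA promoter, and yeast is known to lower rRNA synthesis when growth slows or the cell is stressed. The transcripts measured here are messenger RNAs made by Pol II, so their levels do not measure the activity of Pol I.

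Of the catalytic core, both genes had their lowest signal in nab3-11 at 37 °C. RPA190, the gene of the largest subunit, had 344.8 units in nab3-11 and 435.1 in wild type at 37 °C, and 646.8 in nab3-11 and 735.9 in wild type at 25 °C. Both 37 °C signals lay below both 25 °C signals. RPA135, the gene of the second largest subunit, had 330.7 and 521.2 units in nab3-11 and wild type at 37 °C, and 704.8 and 723.9 at 25 °C. The order of the 4 arrays was thus the same for both genes.

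Of the TFIIF-like pair, RPA49 had 138.2 units in nab3-11 and 210.8 in wild type at 37 °C, against 210.6 in nab3-11 and 203.8 in wild type at 25 °C. A single array, that of nab3-11 at 37 °C, stood below the other 3, which lay close together. RPA34 had 181.2 and 250.9 units in nab3-11 and wild type at 37 °C, and 249.3 and 265.7 at 25 °C. It showed the same single low array, and the profiles of RPA49 and RPA34 over the 4 arrays were the closest of all pairs of the 8 genes, with a Euclidean distance of 0.14 between their centred log2 values.

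The stalk genes differed from each other. RPA43 had 75.2 units in nab3-11 and 120.7 in wild type at 37 °C, and 94.1 in nab3-11 and 118.5 in wild type at 25 °C. Both nab3-11 signals lay below both wild type signals. RPA14 had 455.3 and 417.1 units in nab3-11 and wild type at 37 °C, and 307.1 and 444.8 at 25 °C. Its low array was that of nab3-11 at 25 °C, and its highest was that of nab3-11 at 37 °C.

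RPA12, the gene of the zinc-ribbon subunit, had 148.0 and 172.5 units in nab3-11 and wild type at 37 °C, and 182.3 and 193.6 at 25 °C, a narrow span with nab3-11 at 37 °C lowest. RRN3, the initiation factor gene, had 114.5 units in nab3-11 and 66.9 in wild type at 37 °C, and 73.4 in nab3-11 and 41.4 in wild type at 25 °C. Unlike the core genes, RRN3 was highest in nab3-11 at 37 °C, higher in nab3-11 than in wild type at both temperatures, and higher at 37 °C than at 25 °C in both strains.

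**Figure D1:**
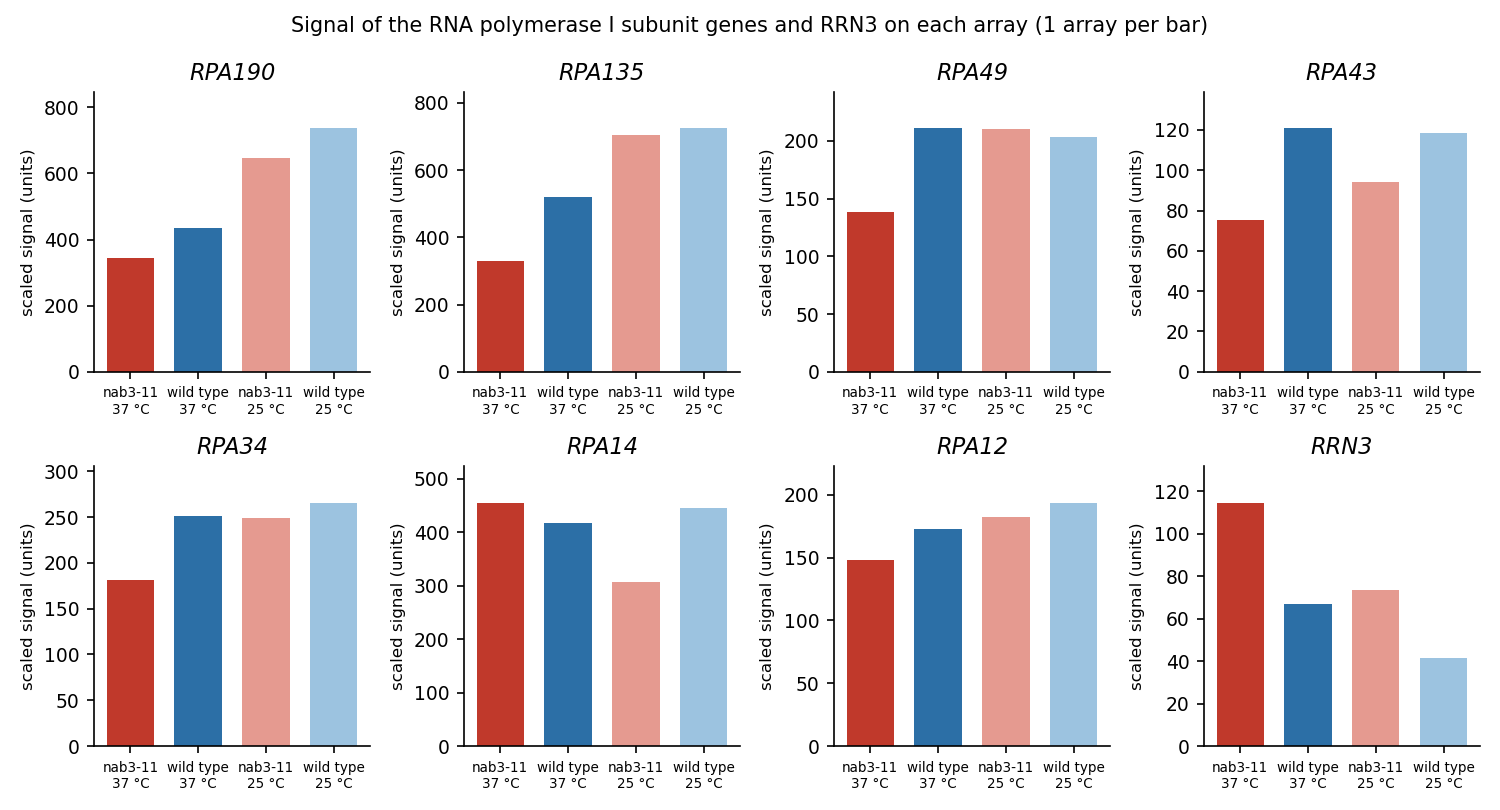
Scaled signal (vertical axes, in units, each starting at 0) of the 8 genes on the arrays of nab3-11 at 37 °C, wild type at 37 °C, nab3-11 at 25 °C and wild type at 25 °C, with 1 array per bar and no error. The nab3-11 37 °C bar is the lowest of 4 for RPA190, RPA135, RPA49, RPA43, RPA34 and RPA12, and the highest for RPA14 and RRN3.

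The main question of the design is what differs when Nab3 is inactivated at 37 °C. Between nab3-11 and wild type at that temperature, 6 of the 8 genes had a difference below 0 and 2 above, where 54.3% of all genes lay below 0. The median log2 difference was -0.40, against -0.05 over 4770 measured genes. At 2-fold 0 of 8 were lower and 0 were higher, where 3.94% and 4.78% of all genes were. At 1.5-fold 3 of 8 were lower, against 14.0% of all genes, and 1 of 8 was higher, against 11.8%. The lower ones were RPA43 (log2 difference -0.68, or 1.61-fold lower), RPA135 (-0.66, 1.58-fold) and RPA49 (-0.61, 1.52-fold), and the higher one was RRN3 (0.78, 1.71-fold). With the floor added to every signal, RPA49 and RPA43 were at -0.54 and -0.56, short of 1.5-fold.

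Short of 1.5-fold were RPA34 at -0.47, RPA190 at -0.34, RPA12 at -0.22 and RPA14 at 0.13. In the ranking of all measured genes, 10.5% had a lower difference than RPA43, 11.3% a lower one than RPA135 and 13.3% a lower one than RPA49, whereas 92.4% had a lower one than RRN3. For the other subunit genes that share was 19.4% for RPA34, 27.8% for RPA190, 36.0% for RPA12 and 64.3% for RPA14, so that 6 of the 7 lay below the middle of the ranking and RPA14 above it. Without RRN3, the 7 subunit genes had a median of -0.47 and a range of -0.68 to 0.13.

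At the permissive 25 °C the median over the 8 genes lay near 0, at -0.09, against 0.01 over 4282 genes. As at 37 °C, 6 of 8 had a difference below 0, where 48.6% of all genes did. At 2-fold 0 of 8 were lower and 0 higher, where 0.537% and 1.17% of all genes were. At 1.5-fold 0 of 8 were lower, against 4.79% of all genes, and 1 was higher, against 6.05%. That gene was RRN3, at 0.83 or 1.77-fold, and 97.9% of genes had a lower difference. RPA14 was the lowest at -0.53, with 6.05% of genes lower still, followed by RPA43 at -0.33 and RPA190 at -0.19. RPA135, RPA49, RPA34 and RPA12 lay between -0.09 and 0.05, and the sign for RPA49 turned to -0.02 with quantile normalization. The strain difference of RRN3 was therefore present at 25 °C as well, at about the size seen at 37 °C.

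**Figure D2:**
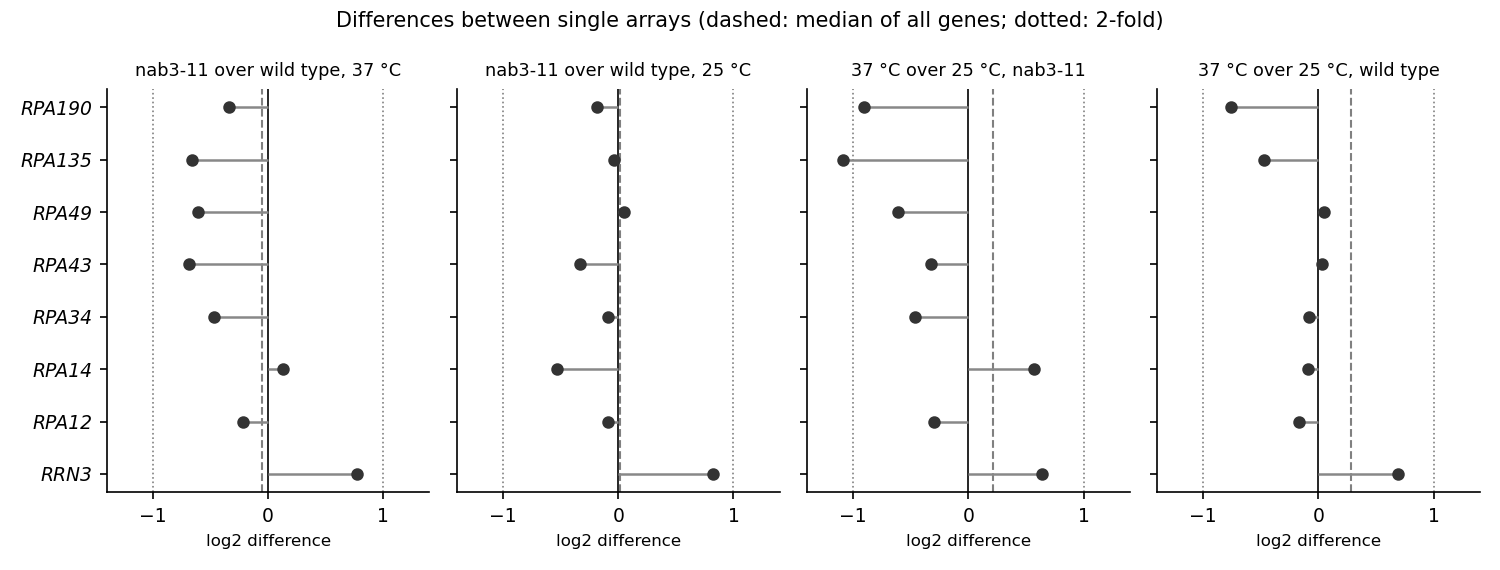
Log2 difference between single arrays (horizontal axes) for the 8 genes in 4 comparisons, namely nab3-11 over wild type at 37 °C, the same at 25 °C, 37 °C over 25 °C in nab3-11 and the same in wild type; the dashed line is the median of all measured genes and the dotted lines mark 2-fold. RPA135 in nab3-11 at 37 °C over 25 °C, at -1.09, is the only point past 2-fold, and RRN3 lies above 0 in all 4 comparisons.

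The shift to 37 °C was compared in each strain. In nab3-11 the median over the 8 genes was -0.39, where the median of 4630 genes was 0.21. RPA135 fell by 1.09 on the log2 scale, or 2.13-fold, and was the 1 gene of 8 past 2-fold on the low side, where 4.06% of all genes were, while 0 of 8 were past it on the high side, against 15.7%. At 1.5-fold 3 of 8 were lower, against 12.3%, namely RPA135, RPA190 (-0.91) and RPA49 (-0.61, and -0.54 with the floor added). The 1 gene higher at 1.5-fold, against 30.8% of all genes, was RRN3 (0.64), while RPA14 was at 0.57, RPA34 at -0.46, RPA43 at -0.32 and RPA12 at -0.30. This comparison uses no wild type array and so does not depend on the label conflict.

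In wild type the median over the 8 genes was -0.09, against 0.29 over 4650 genes. At 2-fold 0 of 8 were lower and 0 higher, where 1.44% and 11.1% of all genes were. RPA190 (-0.76) was the 1 gene lower at 1.5-fold, against 6.41% of all genes, and only 3.48% of genes had a lower value. RPA135 followed at -0.47, with 8.93% of genes lower. RRN3 (0.69) was the 1 gene higher at 1.5-fold, against 29.8%. RPA12, RPA14 and RPA34 were at -0.17, -0.09 and -0.08, and RPA49 and RPA43 at 0.05 and 0.03.

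These temperature values move with the scaling. With arrays scaled to a common median, the median of all genes was -0.26 in nab3-11 and -0.19 in wild type. RPA49 and RPA43 in wild type then turned to -0.46 and -0.48, and with quantile normalization to -0.18 and -0.34. RPA190 and RPA135 stayed below the median of all genes in both strains under both scalings. With the common median they were at -1.43 and -1.61 in nab3-11, against -1.27 and -0.98 in wild type, and with quantile normalization at -0.94 and -1.11 in nab3-11, against -0.74 and -0.41 in wild type. RRN3 stayed above 0 but was no longer past 1.5-fold in either strain, at 0.12 in nab3-11 and 0.19 in wild type with the common median, and at 0.21 and 0.16 with quantile normalization. With the floor added it was short of 1.5-fold too, at 0.52 and 0.49.

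The strain-by-temperature difference asks whether the mutant responded to 37 °C otherwise than wild type. It was below 0 for 7 of 8 genes, where 53.6% of all genes were. The median was -0.25, against -0.05 over 4811 genes. At 2-fold 0 of 8 were lower and 0 higher, where 5.45% and 4.47% of all genes were. At 1.5-fold RPA49 (-0.66, and -0.58 with the floor added, just short of 1.5-fold) and RPA135 (-0.62) were lower, against 17.3% of all genes, and RPA14 (0.66) was higher, against 13.3%. RPA34 was at -0.38, RPA43 at -0.35, RPA190 at -0.15 and RPA12 at -0.13. RRN3 was at -0.05, and above 0 in 3 of 8 alternatives, up to 0.06 with quantile normalization. The value of RPA14 is the sum of 0.13 at 37 °C and the reversed sign of -0.53 at 25 °C.

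The largest subunit gene could be read from further probe sets. Of its 7 probe sets, 3 lay above the floor on all arrays, 1 on some arrays and 3 on none. The second brightest had 73.9 and 138.4 units in nab3-11 and wild type at 37 °C, and 267.6 and 283.8 at 25 °C. The dimmest of the 3 had 45.5 and 73.4 units in nab3-11 and wild type at 37 °C, and 143.4 and 120.6 at 25 °C. In both, as in the brightest, the 37 °C signals were the low ones and nab3-11 at 37 °C the lowest.

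The sizes differed between these probe sets. Between nab3-11 and wild type at 37 °C, the dimmer pair gave log2 differences of -0.91 and -0.69, where the brightest gave -0.34. For 37 °C over 25 °C in nab3-11 they gave -1.86 and -1.66, or 3.62-fold and 3.15-fold lower, where the brightest gave 1.88-fold. In wild type they gave -1.04 and -0.72 against -0.76. Averaged over all 7 probe sets, RPA190 was at -0.68 in nab3-11 and -0.42 in wild type, which in wild type was short of 1.5-fold. That average includes the 3 probe sets below the floor on all arrays, which were raised to the floor and so pull it towards no change. The strain-by-temperature difference was -0.82 and -0.94 for the dimmer pair, both past 1.5-fold, where the brightest gave -0.15. By their type, the dimmer pair can bind further sequences, and which of the 3 probe sets is nearer to the true change was not tested.

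**Figure D3:**
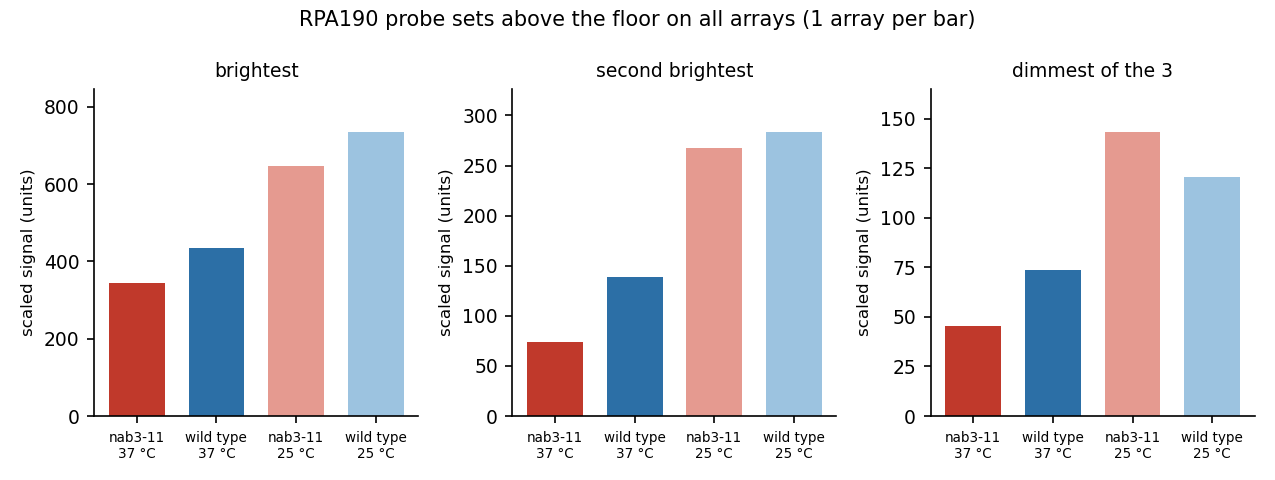
Scaled signal (vertical axes, in units, each starting at 0) of the 3 RPA190 probe sets above the floor on all arrays, ordered by mean signal, on the arrays of nab3-11 at 37 °C, wild type at 37 °C, nab3-11 at 25 °C and wild type at 25 °C, with 1 array per bar. In all 3 the nab3-11 37 °C bar is the lowest, at 344.8, 73.9 and 45.5 units.

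The same roles exist in the other polymerases, which allows each Pol I gene to be set beside its relatives. Between nab3-11 and wild type at 37 °C, RPA135 was at -0.66, its Pol II counterpart RPB2 at -0.12 and its Pol III counterpart RET1 at 0.01. For the largest subunits, RPA190 was at -0.34, RPO21 at -0.08 and RPO31 at 0.17. For one stalk subunit RPA43 was at -0.68, RPB7 at -0.01 and RPC25 at -0.31, and for the other RPA14 was at 0.13, RPB4 at -0.20 and RPC17 at -0.24. The TFIIF-like genes RPA49 and RPA34 were at -0.61 and -0.47, and those of Pol III, RPC37 and RPC53, at 0.02 and -0.33. Among the zinc-ribbon genes the order was turned, with RPA12 at -0.22, RPB9 at -0.28 and RPC11 at -0.50. Pol I was thus the lowest for RPA190, RPA135, RPA43 and the TFIIF-like pair, and not for RPA14 or RPA12. No Pol II genes were set beside RPA49 and RPA34, so these were compared with Pol III alone.

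As groups, the 7 Pol II-only genes all lay below 0 between nab3-11 and wild type at 37 °C, with a median of -0.12. Of these, 1 was lower at 2-fold and at 1.5-fold, and 0 were higher. Over all genes 3.94% were lower at 2-fold and 14.0% at 1.5-fold. That gene was RPB11, at -1.07 (-0.90 with the floor added), which was already at -1.03 at 25 °C. The 10 Pol III-only genes had a median of -0.27, with 1 lower at 2-fold and at 1.5-fold, and 0 higher, so that at 1.5-fold both groups were near the share of all genes. That gene was RPC34, at -1.22, with 26.0 and 60.7 units in nab3-11 and wild type, that of nab3-11 near the floor, and it was at -0.46 with the floor raised to the 55th percentile. The other genes of the naming rule were RPB9, RPB4 (-0.20) and RPB2 for Pol II, and RPC11, RPC31 (-0.43) and RPC53 for Pol III. In wild type at 37 °C over 25 °C, all 10 Pol III-only genes lay above 0, as did 71.3% of all genes. Their median was 0.44, against 0.29 over all genes, and the Pol II-only genes had a median of 0.02, but with the common median as scaling these medians were -0.07 and -0.48. No test of a difference between the polymerases could be made with single arrays.

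**Figure D4:**
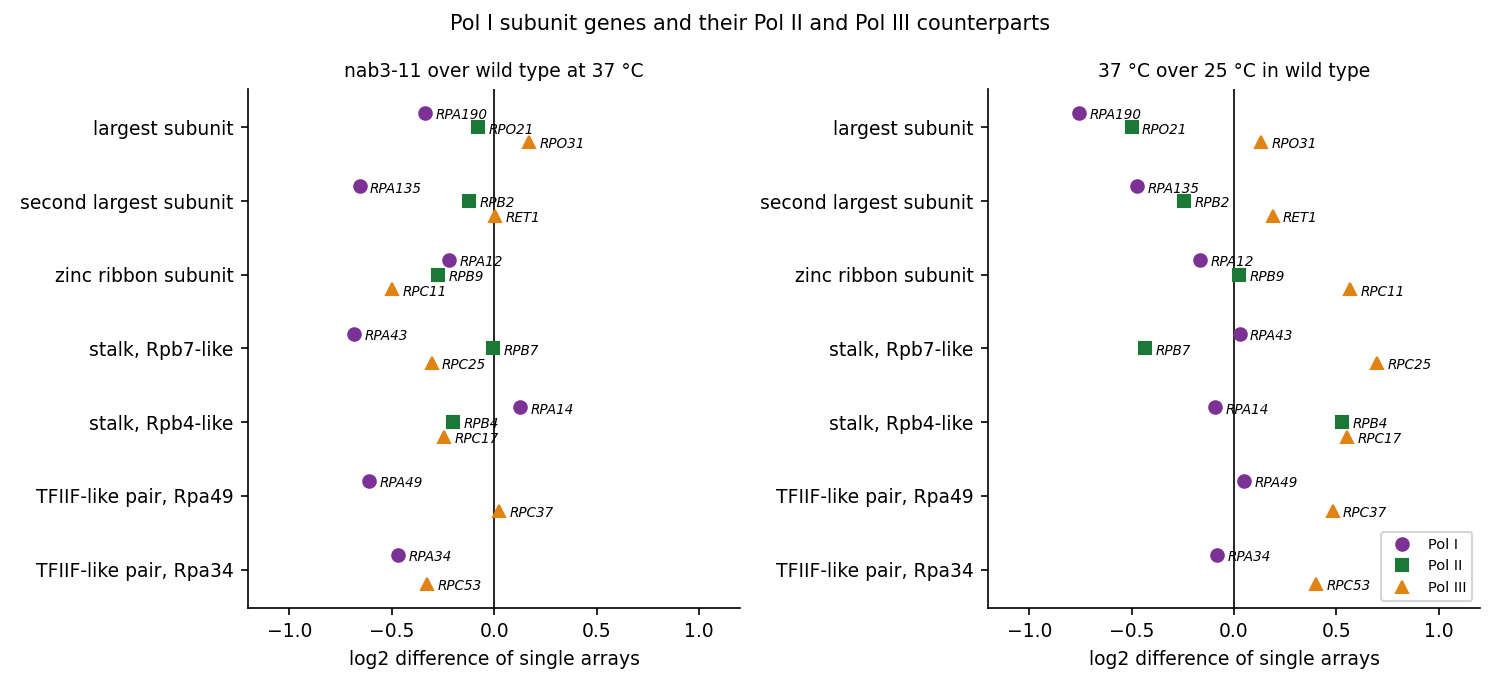
Log2 difference between single arrays (horizontal axes) of Pol I genes (circles), Pol II genes (squares) and Pol III genes (triangles), 1 row per role, for nab3-11 over wild type at 37 °C on the left and for 37 °C over 25 °C in wild type on the right. On the left RPA135 lies at -0.66 beside RPB2 at -0.12 and RET1 at 0.01, and on the right the Pol III genes all lie above 0, with a list median of 0.44 that turns to -0.07 when arrays are scaled to a common median.

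The remaining subunits of Pol I are shared with Pol III or with both other enzymes. All 7 of these genes had a difference below 0 between nab3-11 and wild type at 37 °C, where 54.3% of all genes did. The same held for all 7 Pol II-only genes. The median of the shared genes was -0.45, with 0 past 2-fold and 3 of 7 lower at 1.5-fold, against 14.0% of all genes. RPB8, RPC40 and RPB5 were the 3, at -0.77, -0.70 and -0.61, and RPO26 was at -0.45. With the floor added, RPC40 and RPB5 were at -0.584 and -0.556, short of the 0.585 of 1.5-fold. RPC40, which with RPC19 is shared only with Pol III, had 89.1 and 144.5 units in nab3-11 and wild type at 37 °C, and 134.1 and 143.2 at 25 °C, the pattern of RPA49 and RPA34. RPB8 was lower in nab3-11 at both temperatures, with -0.74 at 25 °C. In wild type at 37 °C over 25 °C the shared subunits had a median of 0.32 (-0.19 with the common median), above the values of RPA190 and RPA135.

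Of the other initiation factors, which form the core factor and the upstream activating factor at the rDNA promoter together with the TATA-binding protein, 6 of 8 were measured at 37 °C. RRN11 and UAF30 lay below the floor on all arrays. The median was 0.11 (-0.05 with the floor at the 25th percentile), with 1 of 6 higher and 0 lower at 2-fold, against 4.78% and 3.94% of all genes. At 1.5-fold 1 was higher and 1 lower, near the 11.8% and 14.0% of all genes. RRN10, a gene of the upstream activating factor, rose 2.12-fold, with 78.5 units in nab3-11 and 37.1 in wild type at 37 °C, and 20.2, below the floor, in nab3-11 and 30.5 in wild type at 25 °C. Its difference at 37 °C was 1.08, and 0.84 with the floor at the 55th percentile. SPT15, the gene of the TATA-binding protein that all 3 polymerases use, was at -0.67, RRN7 at 0.49 and RRN9 at 0.34. RRN3 and RRN10 were thus the genes of Pol I initiation with the highest values in nab3-11 at 37 °C, but at 25 °C RRN10 was no higher than -0.48 where RRN3 was at 0.83.

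Proteins of rDNA chromatin had a median of -0.31 over 6 of 8 measured genes, with 0 past 2-fold. At 1.5-fold 1 of 6 was higher and 0 were lower, against 11.8% and 14.0% of all genes. HMO1, the gene of an HMG-box protein that binds active rDNA, had 370.7 and 504.8 units in nab3-11 and wild type at 37 °C, and 741.5 and 808.1 at 25 °C. This is the order of RPA190 and RPA135, with a difference of -0.45 between strains at 37 °C and of -0.68 between temperatures in wild type. The nucleolar anchor gene NET1 was at -0.38 and the fork-block gene FOB1 at -0.48, with FOB1 below the floor in nab3-11. NSI1, the gene of an rDNA-binding factor linked to Pol I termination, was at 0.83 at 37 °C and 0.43 at 25 °C.

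The UtpA and UtpB complexes, which bind the 5′ end of the nascent ribosomal RNA, lay lower at 37 °C than the Pol I genes. All 13 were below 0, where 54.3% of all genes were, with a median of -0.57. At 2-fold 1 of 13 was lower, against 3.94% of all genes, and at 1.5-fold 6 were lower, against 14.0%, and 0 higher, against 11.8%. NAN1 was the 1 past 2-fold, at -1.06 (-0.66 with the floor at the 55th percentile), with UTP13 at -0.97, PWP2 at -0.95 and DIP2 at -0.79. PWP2 had 21.9 and 42.4 units in nab3-11 and wild type, the first of them at the floor, and was at -0.56 with the floor added. Their median was 0.02 at 25 °C and 0.31 for the shift to 37 °C in wild type (-0.19 with the common median), where RPA190 and RPA135 were at -0.76 and -0.47. Regulators of growth-related transcription had a median of -0.14 over 9 of 11 measured genes, with 0 past 2-fold. At 1.5-fold 2 of 9 were higher and 1 was lower, against 11.8% and 14.0% of all genes. STB3, a gene for a repressor of ribosome biogenesis genes, was at 0.88 with wild type close to the floor, TOR1 at -0.65, KOG1 at 0.64 and IFH1 at -0.34. With the floor added, STB3 and KOG1 were at 0.515 and 0.482, short of 1.5-fold. TOR1 was at -0.19 in the alternative nearest to 0.

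**Figure D5:**
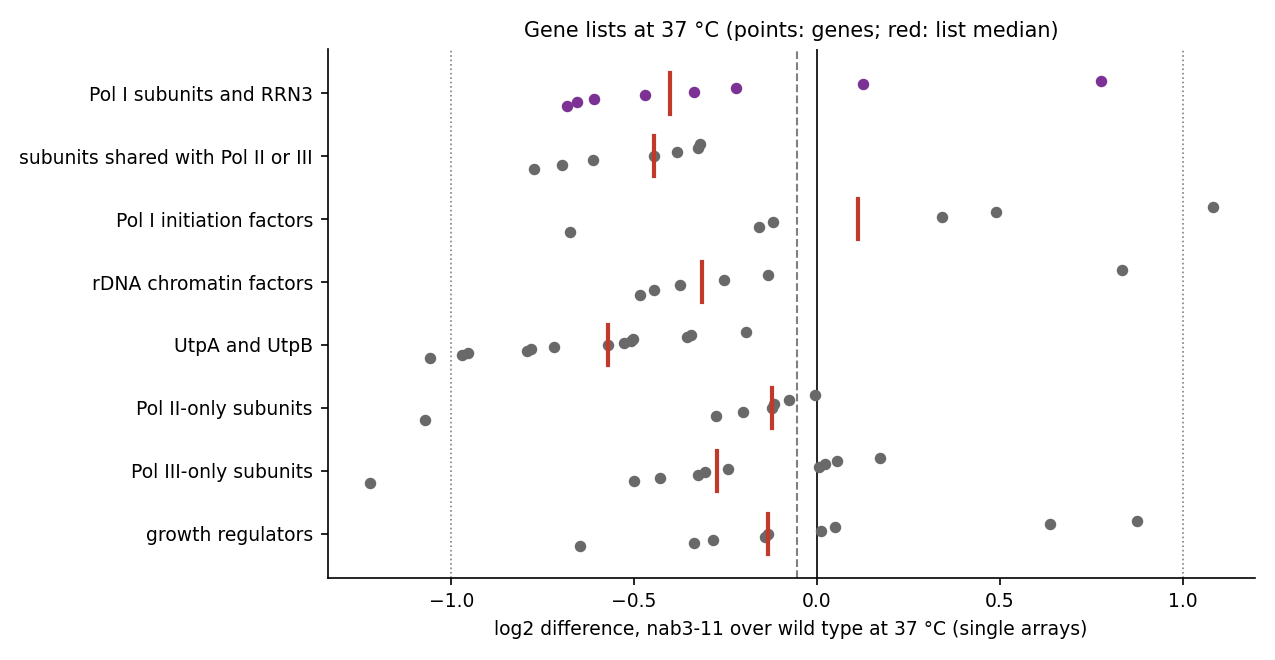
Log2 difference between nab3-11 and wild type at 37 °C (horizontal axis, single arrays) for the genes of 8 lists, 1 row per list, with a point per measured gene, a red bar at the list median, a dashed line at the median of all genes and dotted lines at 2-fold. The Pol I genes have a median of -0.40 with RRN3 apart at 0.78, and the UtpA and UtpB genes have the lowest median, -0.57.

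The position of the genes in the R64 annotation was looked up once their values were known, with up to 2 neighbours on each side. RPA190 and RPA43 lie side by side on chromosome XV on opposite strands and are transcribed away from each other, so both start from the same intergenic region. They nonetheless differed in wild type at 37 °C over 25 °C, at -0.76 against 0.03, and had a Euclidean distance of 0.735 between profiles, where RPA190 and RPA135, on another chromosome, had 0.255. YOR342C, on the far side of RPA190, was at 1.02 in the same comparison.

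RPA34 on chromosome X starts next to the snoRNA genes SNR190 and SNR128, which lie on the opposite strand and are transcribed away from it. SNR128 had 1967 units in nab3-11 and 99.91 in wild type at 37 °C, and 116.4 and 107.3 units at 25 °C, whereas SNR190 lay below the floor on all arrays. RPA34 was at -0.47 between the strains at 37 °C. The array with the high SNR128 signal was thus the one with the lowest RPA34 signal. That array was also the lowest for RPA190, RPA135, RPA49, RPA43 and RPA12, and a link between SNR128 and RPA34 was not tested. RPA49 on chromosome XIV is likewise transcribed away from its neighbour CRS1, which had 29.7 and 62.1 units in nab3-11 and wild type at 37 °C, and 77.5 and 55.1 at 25 °C. The lowest array was the same for both genes, at log2 differences between the strains at 37 °C of -0.61 for RPA49 and -1.06 for CRS1, which was singled out after its values were seen. RPA14 overlaps the reading frame YDR157W on the same strand, for which no probe set of its own was annotated.

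The ribosomal RNA made by Pol I appears on these arrays only through control probe sets. Of 5 for the 18S rRNA, 0 lay above the floor on all arrays, and of 5 for the 25S rRNA 1 did. That one had 646.7 units in nab3-11 and 100.4 in wild type at 37 °C, and 125.6 and 102.0 at 25 °C. Another for the 25S rRNA had 73.0 and 21.4 units at 37 °C, the second value below the floor, and 38.0 and 42.4 at 25 °C. The labelling primed on poly(A), so these values do not measure the amount of ribosomal RNA. The nab3-11 37 °C array, highest for both of these 25S probe sets, was the lowest for 6 of the 7 subunit genes.

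The mean profile of the 8 genes over the 4 arrays, each gene centred on its own mean log2 signal, was -0.23 in nab3-11 and 0.03 in wild type at 37 °C, and 0.08 and 0.13 at 25 °C. Each of the 8 genes was part of this mean, so their ranks against it are partly fixed by that. Among 3825 genes above the floor on all arrays, RPA12 was the 2nd closest to the mean profile by Euclidean distance. RPA34 was the 73rd, followed by RPA49 at 314 and RPA43 at 666. RPA14, RPA190 and RPA135 ranked 1795, 1844 and 1863, near the middle of all genes, and RRN3 ranked 3312. The closest genes outside the set were TUP1, MDJ1, BNI1, MOT2, TSC13, BIL1, MRS6, YMC2, DJP1 and MIA40, at distances of 0.03 to 0.08. Of these, MOT2, BIL1 and DJP1 lay near the floor, with 22.0, 21.8 and 23.0 units in nab3-11 at 37 °C. With 4 points per profile and 8 genes that differ among themselves, such closeness is a description of these arrays.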

How the data were processed

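The authors deposited 1 linear intensity per probe set and array, and the submitters' processing notes name MAS5 and GCOS 1.1.1. RNA was amplified once from an oligo(dT) primer per the labels' protocols. From the values, the authors had scaled each array to a 2% trimmed mean between 150.1 and 150.2, and arrays were rescaled here to 150.2. Signals below the floor of 21.8 were raised to it before log2, so differences understate low genes. A gene was measured where a signal of the comparison exceeded the floor. Of 9335 probe sets, 60 were controls, 6504 had 1 gene in the platform annotation, all matched to R64 by gene ID, 328 had several and 2443 none. No build is named for the array design, so R64 served for names and neighbours only, with strand read from the locus tag.

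The 8 genes, the lists, the 2-fold and 1.5-fold rules and the 9 alternatives were chosen with earlier results of these data known. From each list, up to 4 genes with the largest difference at 37 °C and every gene past 2-fold there were named, with the 10 genes closest in profile and NAB3 and NRD1. No sequences were used here. The code for scaling and folds was tested on simulated data with known folds, which says nothing of the error of single arrays. Python 3.11.15, numpy 2.4.6, pandas 2.3.3 and matplotlib 3.10.9 were used.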

Additional observations from a re-analysis of the deposited data

Results flagged for a closer look

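For 3 genes the difference of 37 °C to 25 °C had opposite signs in the strains, each strain with 1 array per temperature, and the difference between strains was not tested. RPA49 was at -0.61 in nab3-11 and 0.049 in wild type. RPA43 was at -0.32 in nab3-11 and 0.027 in wild type. RPA14 was at 0.57 in nab3-11 and -0.093 in wild type. The wild type values of RPA49 and RPA43 turned below 0 with a common median or quantile normalization, so the opposite signs of these genes hold only under some scalings, whereas RPA14 had opposite signs under all 8 alternatives tried for it.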

How the results depend on the processing

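No paired analysis was possible because each group has 1 array. Of 1022 values recomputed, which were log2 differences and counts of genes past 2-fold, 1014 stayed within 1.5-fold of the reported value and 8 moved further. For the log2 differences this is a band of 0.585. It exceeds the size of every median over the 8 genes, so a log2 difference inside it can change sign. The median of all genes in nab3-11 at 37 °C over 25 °C, for example, went from 0.21 to -0.26 with a common median. The values as deposited, 1 of the 9 alternatives, were also nearly those of the main scaling. With a common median, 3 of the 8 genes passed 2-fold in nab3-11 at 37 °C over 25 °C and 1 did in wild type, and at a 3-fold threshold 0 passed in nab3-11. Putting the nab3-11 25 °C array in place of the wild type 37 °C array, chosen after seeing the data because of the label conflict, gives the nab3-11 37 °C over 25 °C comparison again (1 gene past 2-fold, median -0.39), which differs in temperature and is no check of the strain difference. The median over the 8 genes kept its sign in every comparison, with ranges of -0.54 to -0.37 between strains at 37 °C, -0.13 to -0.06 at 25 °C, -0.91 to -0.34 for 37 °C over 25 °C in nab3-11 and -0.59 to -0.08 in wild type. Signal over background limits the genes whose values shrank or were lost with the floor at the 55th percentile. There RPC34 moved further than 1.5-fold, while RRN10 and NAN1 were among those that shrank but stayed within it. FOB1, PWP2, RRN9 and STB3 gave no value.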
